A study of Mus musculus with 8 samples.

Results

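The enzymes, enzyme regulators and transporters that carry glucose carbon through glycolysis, lactate and pyruvate into the tricarboxylic acid (TCA) cycle were followed in the neovascular mouse retina. They were 37 named genes, taken by name from a table of 57010 gene identifiers. They filled 38 rows, because Aldoa stands there under 2 identifiers, and 36 of those rows had enough RNA to be tested, among 16118 tested genes. None of the 36 passed the test between the groups, and the farthest bound of any member's 95% interval lay at 1.26-fold. The libraries of the knockdown group lay further apart from each other than the controls for 31 of the 36, and most of the abundant glycolytic transcripts were highest in knockdown 1 and lowest in knockdown 3 or 4.

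Both groups were retinas of C57BL/6J mice at 17 days of age with oxygen-induced retinopathy (OIR), in which pups lose retinal capillaries in high oxygen and then grow abnormal vessels in room air. The control group (AAV_NC, 4 libraries, here control 1 to 4) had received a control scAAV, a self-complementary adeno-associated virus used to deliver genes. The other group (AAV_sh, 4 libraries, here knockdown 1 to 4) had received an scAAV meant to lower lncRNA-MM2P, a long noncoding RNA, although its treatment label reads AAV KO. All animals had OIR, so a healthy retina is not among the groups, and the promoter and the target cells of the vectors are not given. The labels do not say whether libraries are separate animals or pools. The p-values set the group difference against the spread among libraries of a group, which need not be the spread among animals.

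Glycolysis splits glucose into pyruvate, which is either reduced to lactate and exported or oxidised in mitochondria by the pyruvate dehydrogenase complex and the TCA cycle. The retina is known for making much lactate even when oxygen is plentiful, a habit of its photoreceptors. Low oxygen raises many glycolytic genes through hypoxia-inducible factors, which bind short DNA elements with an A or a G before the letters CGTG.

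Library totals were 16.03 to 21.4 M (M, 1000000 estimated counts), and 3 counts, the floor of a library, corresponded to 0.14 to 0.187 counts per 1000000 (CPM); floors cover counting error only. Of all tested genes, 10 were called by edgeR (adjusted p under 0.05). The targeted RNA, listed as Mm2pr, had 1, 1, 16.95 and 7.34 counts in the controls and 0, 0, 2 and 20.61 in the knockdown, too few to check the group labels. Markers of Müller glia summed to 3082 to 3380 transcripts per 1000000 (TPM) over the 8 libraries. Cone photoreceptor markers summed to 1035 to 1121 TPM in the controls and 927 to 1048 TPM in the knockdown, and pericyte markers to 208 to 250 and 196 to 219 TPM, with negative fold changes in 5 of 5 and 4 of 4 and none called. Skeletal muscle markers summed to 61.7 TPM in knockdown 4 and 4.80 to 12.8 TPM elsewhere. Lens markers summed to 1.44 to 3.30 TPM in the controls and 16.9 to 202 TPM in the knockdown, with 2 of 6 called higher, and ganglion cell markers to 903 to 942 and 687 to 881 TPM, with 1 of 5 called lower. Whether such cells had a part in the member values was not tested, and in bulk tissue fewer cells of a type and less RNA per cell cannot be told apart. Counts of the Y-linked Ddx3y were 0 in knockdown 1, in knockdown 3 and in control 1, and control 3 had 1919 with 16 of the female-specific Xist. The remaining 4 libraries held both, at 814 to 1038 and 21030 to 28660 counts, and thus RNA of both sexes and of more than 1 animal.

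Start regions are shown for 6 of the 10 genes from aldolase to lactate dehydrogenase A, those with a match to this element outside annotated exons, so that the letters can be seen. Tpi1 and Eno2 held no match, and Aldoc and Pkm held one only in stretches that overlap an exon. Each is a 60-base stretch upstream of a RefSeq transcript start (GRCm38.p6), written along the gene's strand, with capitals at ACGTG or GCGTG on either strand (read as CACGT or CACGC on the other). An overlapping pair, as in CACGTG, is shown as 1 run.
Aldoa, chr7:126799341-126799400, minus strand: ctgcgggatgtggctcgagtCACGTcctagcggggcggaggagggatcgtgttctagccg
Gapdh, chr6:125165788-125165847, minus strand: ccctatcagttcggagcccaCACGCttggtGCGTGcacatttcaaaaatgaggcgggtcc
Pgk1, chrX:106186930-106186989, plus strand: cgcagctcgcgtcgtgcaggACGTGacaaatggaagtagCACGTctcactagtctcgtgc
Pgam1, chr19:41911737-41911796, plus strand: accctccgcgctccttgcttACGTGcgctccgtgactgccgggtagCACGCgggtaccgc
Eno1, chr4:150236458-150236517, plus strand: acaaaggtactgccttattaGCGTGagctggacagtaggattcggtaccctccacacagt
Ldha, chr7:46845736-46845795, plus strand: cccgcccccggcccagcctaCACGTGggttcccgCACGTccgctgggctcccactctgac
Exons are those of GENCODE M21. The Aldoa, Gapdh and Ldha stretches lie in introns of longer transcripts of the same gene, and the Pgk1, Pgam1 and Eno1 stretches lie upstream of the whole gene. Over the 250 bases before a start, 28 of the 35 members with a RefSeq entry (80.0%) held at least 1 match, against 41.5% of 27025 genes. Member starts are rich in CG pairs, with a median of 14 per window against 6. Counted by window, 43 of 56 member windows (76.8%) held a match, against 38.6% of all windows and 67.3% of all windows with at least 14 CG pairs. The 76.8% includes member windows with fewer than 14 CG pairs, so these shares are not matched for CG content. All 4 members of the lactate group held one, as did all 3 phosphofructokinase genes, all 3 Pfkfb genes and all 4 pyruvate dehydrogenase kinases. The count was 7 of 9 from aldolase to pyruvate kinase and 3 of 6 in the TCA cycle. It was 2 of 3 both in glucose entry and in the pyruvate dehydrogenase complex. A match is a description of the letters and not a binding site.

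Transcript levels of the members spanned 494-fold. The mean over all 8 libraries was 4274 TPM for Gapdh and 8.65 TPM for Pfkfb4. The tested members held 181 to 48958 counts in a library, far above the floor. Within a member the highest library exceeded the lowest by 1.05-fold (Cs) to 1.45-fold (Pdk2), with a median of 1.19-fold, against 1.33-fold over all tested genes. The members together made up 2.04% to 2.31% of all TPM in a library.

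**Figure D1:**
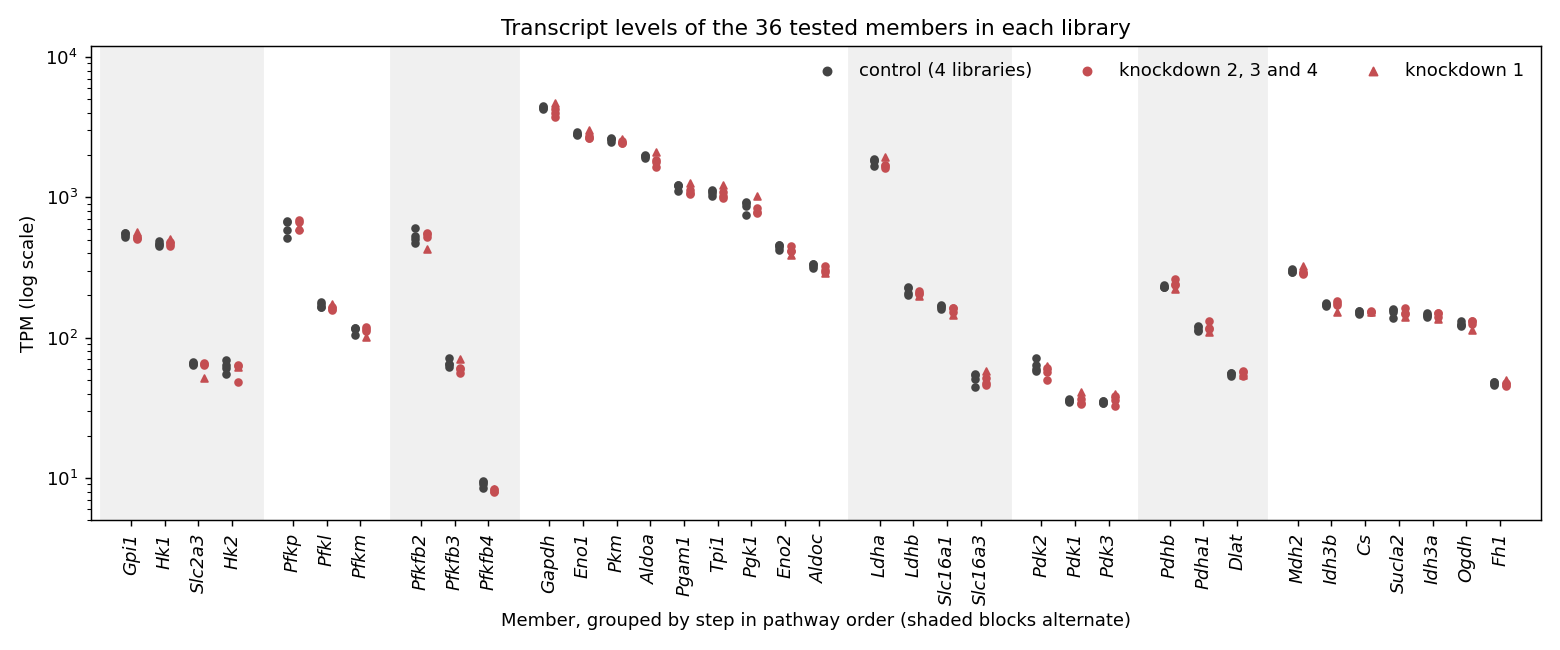
TPM (log scale) of the 36 tested members in each of the 8 libraries, grouped by step; dark points are the 4 controls, red points knockdown 2, 3 and 4, and red triangles knockdown 1. The aldolase to pyruvate kinase block is the highest, with Gapdh at 3718 to 4728 TPM, and the groups overlap in every member but Pfkfb4.

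The comparison of the groups asks whether retinas given the scAAV against lncRNA-MM2P carry more or less RNA of these steps. With edgeR's quasi-likelihood test and Benjamini-Hochberg adjustment over all 16118 genes, 0 of 36 members were called, against a background of 0.062% called. The smallest adjusted p was 0.93. An unadjusted p under 0.05 was reached by 0 of 36, against 5.27% of all genes. DESeq2 and limma called 0 members as well, with Aldoc and Eno2 under 0.05 unadjusted in DESeq2 and Aldoc alone in limma. Log2 fold changes, here always knockdown minus control, ran from -0.15 (Pfkfb4) to 0.07 (Pdk3), with SE from 0.045 to 0.104. The median over members was -0.04, against 0.004 over all genes, and 28 of 36 (77.8%) were negative, against 48.2% of all genes. Members of one pathway vary together between libraries, so this count is a description with no test, and the number of positive values ranged from 7 to 16 when each library was left out in turn. The 95% intervals stayed within 1.25-fold for 35 of 36 and reached 1.26-fold for Pfkfb4.

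**Figure D2:**
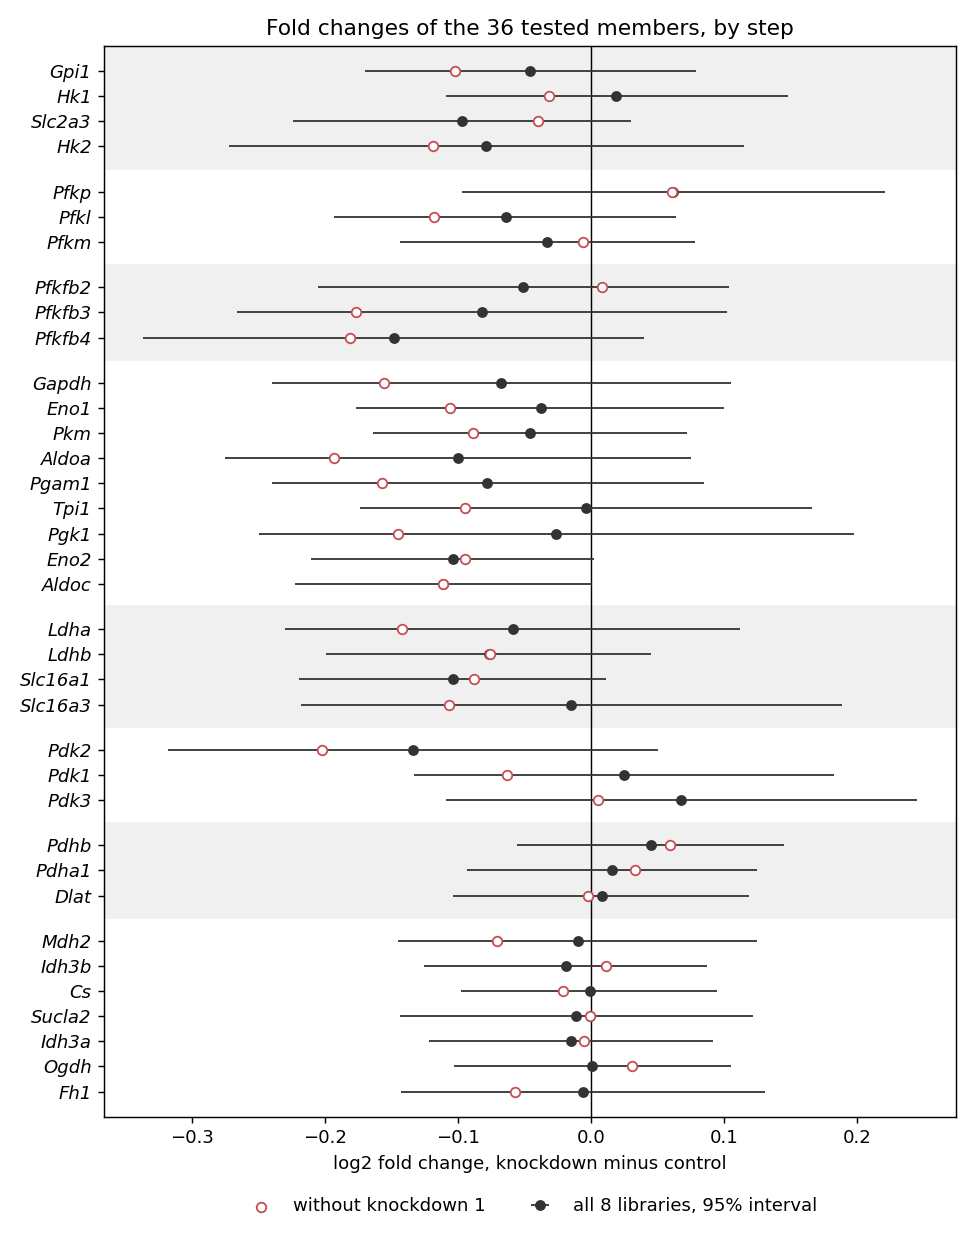
Log2 fold change of each tested member, knockdown minus control, by step. Filled points with bars are the fit on all 8 libraries with its 95% interval, and open points the fit without knockdown 1; every filled point lies between -0.15 and 0.07, and 29 of 36 open points are negative.

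Glucose entry and its first steps gave no called change. Slc2a3 encodes GLUT3, the glucose transporter of neurons. Controls 1 to 4 had 65.6, 67.4, 63.8 and 64.7 TPM of it, and knockdown 1 to 4 had 51.6, 65.5, 64.9 and 63.6 TPM. Knockdown 1 alone stood low, and the other 3 knockdown libraries lay among or next to the controls. The difference between groups was -0.10 on the log2 scale (SE 0.059; adjusted p = 0.971 by edgeR), and -0.04 without knockdown 1.

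The hexokinases trap glucose in the cell by phosphorylating it. Hk1, the general isoform of brain and retina, was at 468 ± 17.7 TPM in the controls and 475 ± 22.9 TPM in the knockdown (SD, n = 4 each). Hk2, the isoform that mouse photoreceptors use for aerobic glycolysis, had 64.2, 55.2, 69.1 and 60.4 TPM in the controls and 61.4, 48.5, 64.1 and 62.7 in the knockdown. Control 2 and knockdown 2 were its lowest libraries, and the groups overlapped across most of their range. The difference between groups was -0.08 on the log2 scale (SE 0.090; adjusted p = 0.989 by edgeR). Gpi1, which turns glucose phosphate into fructose phosphate, was at 544 ± 17.5 TPM (SD, n = 4) and 527 ± 25.4 TPM (SD, n = 4), highest in knockdown 1 and lowest in knockdown 3.

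Phosphofructokinase commits sugar to glycolysis, and the retina carried all 3 of its subunit genes. The platelet-type subunit Pfkp was the most abundant, with 667, 680, 581 and 511 TPM in the controls and 611, 582, 665 and 691 TPM in the knockdown. Control 4 was its lowest library and knockdown 4 its highest, and the values of both groups ran over much the same range. The difference between groups was 0.06 on the log2 scale (SE 0.074; adjusted p = 0.989 by edgeR), with an interval of -0.10 to 0.22. The liver-type Pfkl had 171 ± 7.44 TPM (SD, n = 4) and 164 ± 7.86 (SD, n = 4), and the muscle-type Pfkm 114 ± 5.82 and 112 ± 8.01 (SD, n = 4 each). Pfkp exceeded Pfkl by 3.08- to 4.33-fold and Pfkm by 4.85- to 6.05-fold in TPM over the 8 libraries.

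The Pfkfb enzymes make and remove fructose 2,6-bisphosphate, the strongest activator of phosphofructokinase. Pfkfb2 dominated, at 429 to 608 TPM. Pfkfb3, whose protein mainly makes the activator and which drives glycolysis in sprouting mouse endothelium, had 71.4, 61.4, 64.6 and 64.8 TPM in the controls and 70.9, 61.0, 56.0 and 59.7 in the knockdown. By TPM knockdown 1 lay close to the highest control, and the other 3 knockdown libraries lay below all controls. By CPM, knockdown 2 lay above control 2 (log2 deviations of -0.099 and -0.123 from the median of the other 7 libraries). The difference between groups was -0.08 on the log2 scale (SE 0.086; adjusted p = 0.989 by edgeR), and -0.18 (SE 0.068, adjusted p = 0.534) without knockdown 1.

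Pfkfb4, a hypoxia-responsive member of the family, was the least abundant tested member. Its TPM was 9.46, 9.35, 8.54 and 9.01 in the controls and 8.41, 7.90, 8.17 and 8.38 in the knockdown. By TPM every knockdown library lay below every control, by a margin of 8.54 to 8.41 TPM at the closest point. By CPM, knockdown 1 (0.028) lay above control 3 (-0.028), as log2 deviations from the median of the other 7 libraries. Pfkfb4 was the only one of 36 members whose groups did not overlap by TPM, against 2.95% of all tested genes. The log2 fold change of -0.15 (SE 0.088, interval -0.34 to 0.04) did not pass the test (edgeR adjusted p = 0.963).

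The lower stretch of glycolysis, from aldolase to pyruvate kinase, held the most abundant members. The summed TPM of these genes was 15670 ± 243 (SD, n = 4) in the controls. In the knockdown it was 15070 ± 1148 (SD, n = 4), with 16630, 15180, 14050 and 14400 TPM in knockdown 1 to 4. Knockdown 1 lay above and the other 3 knockdown libraries below all controls, whose range was 15340 to 15910 TPM. By CPM, the genes' median log2 deviation from the median of the other 7 libraries was -0.07 in control 2 and -0.04 in knockdown 2. All 9 log2 fold changes were negative, from -0.11 (Aldoc) to -0.004 (Tpi1), and 0 of 9 were called.

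Aldoa encodes the general aldolase, which splits the phosphorylated sugar. Its main identifier had 1969, 1905, 1983 and 2020 TPM in the controls and 2097, 1834, 1643 and 1782 in the knockdown. The knockdown libraries lay on both sides of the controls, 1 above and 3 below. Its group difference came to -0.10 on the log2 scale (SE 0.081; adjusted p = 0.989 by edgeR). The second identifier under the same name, ENSMUSG00000114515, lies next to it on the same strand, stayed at 0.33 to 1.22 TPM and was not tested.

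Gapdh makes the NADH of glycolysis and often serves as a reference gene. It had 4484, 4266, 4334 and 4405 TPM in the controls and 4728, 4246, 3718 and 4008 in the knockdown. By TPM the controls lay within a narrow band with knockdown 1 above it and the other 3 below. By CPM, knockdown 2 lay above control 2 (log2 deviations of -0.046 and -0.073 from the median of the other 7 libraries). The difference between groups was -0.07 on the log2 scale (SE 0.080; adjusted p = 0.989 by edgeR).

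Pgk1, the first enzyme to make ATP in the pathway, had the widest spread here, with 871, 754, 912 and 934 TPM in the controls and 1015, 838, 791 and 770 in the knockdown. Knockdown 1 was highest and control 2 lowest, so both groups held an extreme. Eno1, the general enolase, had 2900, 2830, 2798 and 2815 TPM in the controls and 3015, 2745, 2647 and 2651 in the knockdown, the same order of a high knockdown 1 and 3 libraries below the controls. Pkm, the pyruvate kinase, had 2591, 2641, 2627 and 2461 TPM in the controls and 2611, 2527, 2447 and 2425 in the knockdown. In Pkm knockdown 1 lay inside the control range. Tpi1, the triose isomerase, and Pgam1, the mutase before enolase, were highest in knockdown 1 (1228 and 1257 TPM) and lowest in knockdown 4 (994 and 1055 TPM). The log2 fold changes of these 5 genes ran from -0.08 (Pgam1) to -0.004 (Tpi1), each with an edgeR adjusted p of at least 0.989.

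Aldoc and Eno2, the brain-type aldolase and the neuron-specific enolase, had the smallest unadjusted p-values of all members, 0.0526 and 0.0547, with edgeR adjusted p = 0.93 for both. Aldoc had 313, 333, 325 and 333 TPM in the controls and 290, 322, 295 and 304 in the knockdown. Eno2 had 444, 461, 459 and 423 TPM in the controls and 392, 447, 415 and 413 in the knockdown. In both genes knockdown 1 was the lowest library and knockdown 2 lay inside the control range. The log2 fold changes were -0.11 (SE 0.052) and -0.10 (SE 0.050), and -0.11 and -0.09 without knockdown 1. All 5 ganglion cell markers and all 5 amacrine cell markers were also lowest in knockdown 1, the latter summing to 407 TPM there and 475 to 539 TPM elsewhere, and their part in these values was not tested.

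Lactate dehydrogenase links pyruvate to lactate. Ldha, the form that favours lactate production, had 1832, 1665, 1816 and 1886 TPM in the controls and 1941, 1713, 1662 and 1609 in the knockdown. Knockdown 1 was highest and knockdown 3 and 4 were lowest, with control 2 close to them. Ldhb, the form that favours pyruvate, had 217 ± 13.5 TPM (SD, n = 4) and 206 ± 7.73 (SD, n = 4). The log2 fold changes were -0.06 (SE 0.080, edgeR adjusted p = 0.993) for Ldha and -0.08 (SE 0.057, edgeR adjusted p = 0.989) for Ldhb.

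The lactate transporters divide between cell types. Slc16a1 encodes MCT1 and had 161, 168, 166 and 172 TPM in the controls and 144, 163, 151 and 164 in the knockdown. Knockdown 1 and 3 lay below all controls, and knockdown 2 and 4 within their range. Its log2 fold change of -0.10 (SE 0.054, interval -0.22 to 0.01) did not pass the test (adjusted p = 0.936 by edgeR). Slc16a3 encodes MCT4, the exporter of highly glycolytic cells, and had 44.7 to 54.8 TPM in the controls and 45.8 to 57.7 TPM in the knockdown.

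Pyruvate dehydrogenase kinases shut pyruvate out of mitochondria by phosphorylating the dehydrogenase. Pdk2 had 64.1, 71.8, 57.9 and 60.3 TPM in the controls and 63.3, 61.0, 49.6 and 57.3 in the knockdown. Control 2 and knockdown 3 formed its ends, and 2 knockdown libraries lay inside the control range. The group difference was -0.13 on the log2 scale (SE 0.086; adjusted p = 0.972 by edgeR). Pdk1, the hypoxia-induced form, had 35.8 ± 0.779 TPM in the controls and 36.4 ± 3.45 TPM in the knockdown (SD, n = 4 each), and was highest in knockdown 1 at 41.2 TPM. Pdk3, also a hypoxia-responsive form, had 34.9 ± 0.860 and 36.6 ± 3.22 TPM (SD, n = 4 each). Pdk4, which serves fasting muscle and liver, stayed at 0.067 to 1.07 TPM and was not tested.

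The pyruvate dehydrogenase complex carries pyruvate into the TCA cycle, and its genes showed another order of libraries. Pdhb, a subunit of its first enzyme, had 231, 239, 231 and 228 TPM in the controls and 224, 240, 262 and 237 in the knockdown. Pdha1, the subunit that the kinases phosphorylate, had 120, 120, 112 and 114 TPM in the controls and 109, 115, 131 and 118 in the knockdown. By TPM both genes were lowest in knockdown 1 and highest in knockdown 3, the reverse of Gapdh and Aldoa. By CPM both were still highest in knockdown 3, but a control was lowest. As log2 deviations from the median of the other 7 libraries, Pdhb had -0.032 in control 1 and -0.003 in knockdown 1. Pdha1 had -0.052 in control 3 and -0.037 in knockdown 1. The log2 fold changes of Pdhb and Pdha1 were 0.05 (SE 0.047) and 0.02 (SE 0.051), with edgeR adjusted p = 0.989 and 0.997. Dlat, the acetyl-transferring core, had 52.9 to 56.3 TPM in the controls and 53.2 to 57.9 TPM in the knockdown.

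The 7 TCA cycle genes lay within a narrow band of fold changes. Their summed TPM was 1095 ± 11.8 in the controls and 1092 ± 22.4 in the knockdown (SD, n = 4 each), and their log2 fold changes ran from -0.02 (Idh3b) to 0.001 (Ogdh). Cs, the citrate synthase that opens the cycle, had 156, 156, 149 and 151 TPM in the controls and 153, 155, 152 and 153 in the knockdown. By TPM all knockdown libraries lay inside the control range. By CPM, knockdown 1 (0.069) lay above and knockdown 3 (-0.055) below all controls (-0.043 to 0.047). These are log2 deviations from the median of the other 7 libraries. The SE of Cs, 0.045 on the log2 scale, was the smallest of the members, with a 95% interval of -0.10 to 0.10.

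Idh3a and Idh3b, subunits of the NAD-dependent isocitrate dehydrogenase, and Ogdh, of the oxoglutarate dehydrogenase, were lowest by TPM in knockdown 1, at 136, 154 and 113 TPM. Their controls ran from 141 to 150, from 168 to 178 and from 121 to 132 TPM. By CPM, Idh3b and Ogdh were still lowest in knockdown 1, but Idh3a was lowest in control 2. Its log2 deviations from the median of the other 7 libraries were -0.094 in control 2 and -0.054 in knockdown 1. Sucla2, a subunit of succinyl-CoA synthetase, was at 138 to 164 TPM and Fh1, the fumarase, at 45.5 to 50.0 TPM, with overlapping groups. Mdh2, the mitochondrial malate dehydrogenase, had 295, 293, 306 and 306 TPM in the controls and 322, 296, 284 and 291 in the knockdown. As in Gapdh, Aldoa and Eno1, knockdown 1 was its highest and knockdown 3 its lowest library. The log2 fold change of Mdh2 was -0.01 (SE 0.063, edgeR adjusted p = 0.998).

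**Figure D3:**
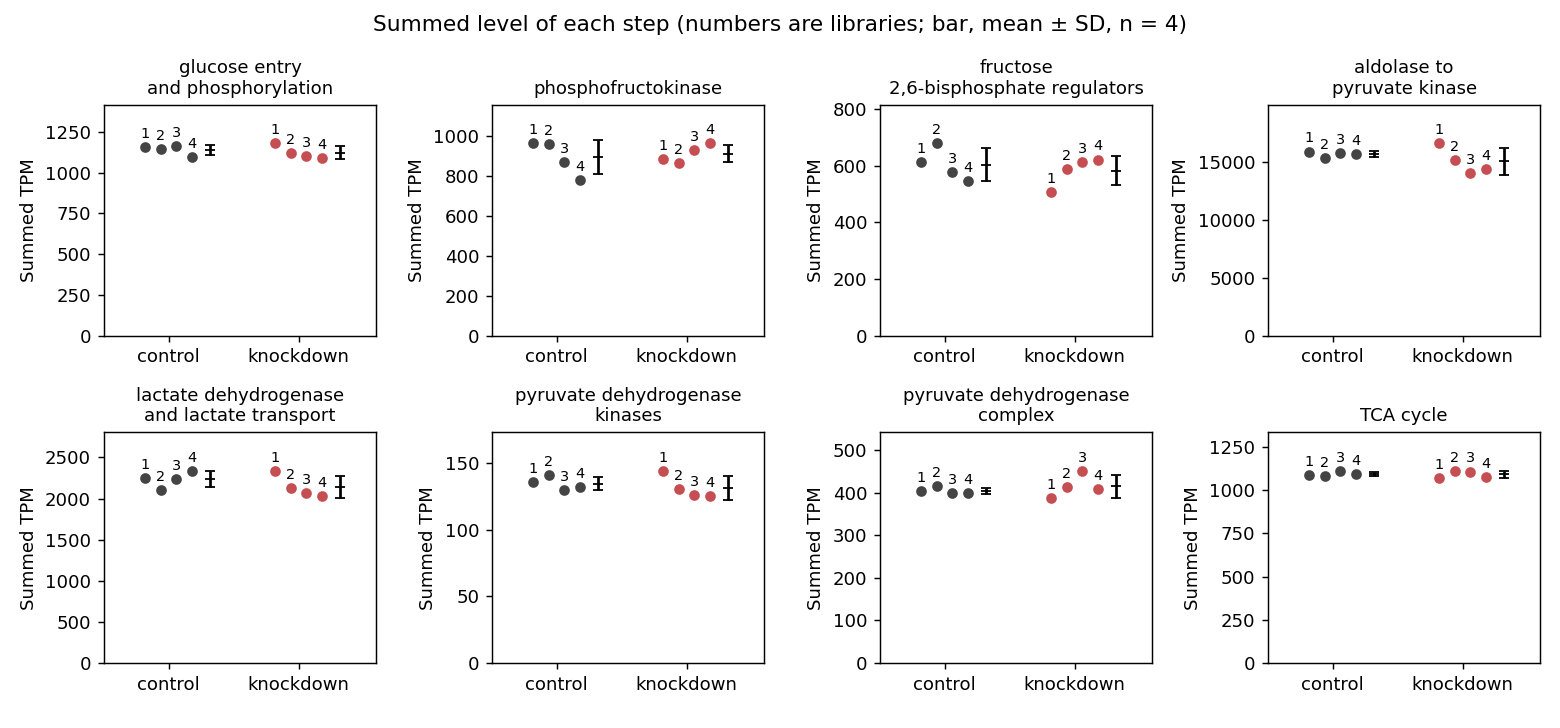
Summed TPM of the members of each step, by group, with the library number above each point and the mean ± SD (n = 4) beside it; all axes start at 0. Aldolase to pyruvate kinase runs from 14050 TPM in knockdown 3 to 16630 TPM in knockdown 1, while the TCA cycle stays between 1069 and 1113 TPM.

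Most members varied more among the knockdown libraries than among the controls. The ratio of the highest to the lowest TPM was larger in the knockdown for 31 of 36 members (86.1%), against 57.2% of all tested genes. The exceptions were Pfkp, Pfkfb2, Pfkfb4, Ldhb and Cs. Knockdown 1 was the highest library for 14 of 36 members (38.9%), against 12.1% of all genes, and the lowest for 12 (33.3%), against 27.0%. Knockdown 3 was the lowest for 8 (22.2%), against 9.82%. On the CPM scale, which does not divide by gene length, knockdown 1 was highest for 18 (50.0%), against 19.7% of all genes, but lowest for 5 (13.9%), below the 18.5% of all genes. Knockdown 3 was then lowest for 14 (38.9%), against 15.1%.

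Different members stood at these ends. Highest in knockdown 1 by TPM were Hk1, Gpi1, Aldoa, Tpi1, Gapdh, Pgk1, Pgam1, Eno1, Ldha, Slc16a3, Pdk1, Pdk3, Fh1 and Mdh2. Lowest in knockdown 1 by TPM were Slc2a3, Pfkm, Pfkfb2, Aldoc, Eno2, Ldhb, Slc16a1, Pdha1, Pdhb, Idh3a, Idh3b and Ogdh. In 3 pairs of isoforms, Aldoa and Aldoc, Eno1 and Eno2, and Ldha and Ldhb, the first was highest and the second lowest in that library by TPM. By CPM the first of each pair was still highest in knockdown 1, while the second was lowest in knockdown 3.

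A ratio of 2 genes within a library keeps the same order of libraries on either scale. Ldha over Ldhb, both in TPM, was 8.77, 7.42, 8.98 and 8.15 in the controls and 9.85, 8.29, 8.10 and 7.45 in the knockdown. Aldoa over Aldoc was 6.29, 5.73, 6.11 and 6.07 in the controls and 7.23, 5.69, 5.57 and 5.86 in the knockdown. Eno1 over Eno2 was 6.53, 6.14, 6.10 and 6.65 in the controls and 7.70, 6.14, 6.37 and 6.42 in the knockdown. In each pair knockdown 1 was highest and the other 3 knockdown libraries lay in or near the control range. The summed TPM of aldolase to pyruvate kinase over that of the TCA cycle was 14.6, 14.1, 14.2 and 14.3 in the controls and 15.6, 13.6, 12.7 and 13.4 in the knockdown, so that knockdown 1 lay above and the other 3 below every control. These ratios are descriptions with no test.

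**Figure D4:**
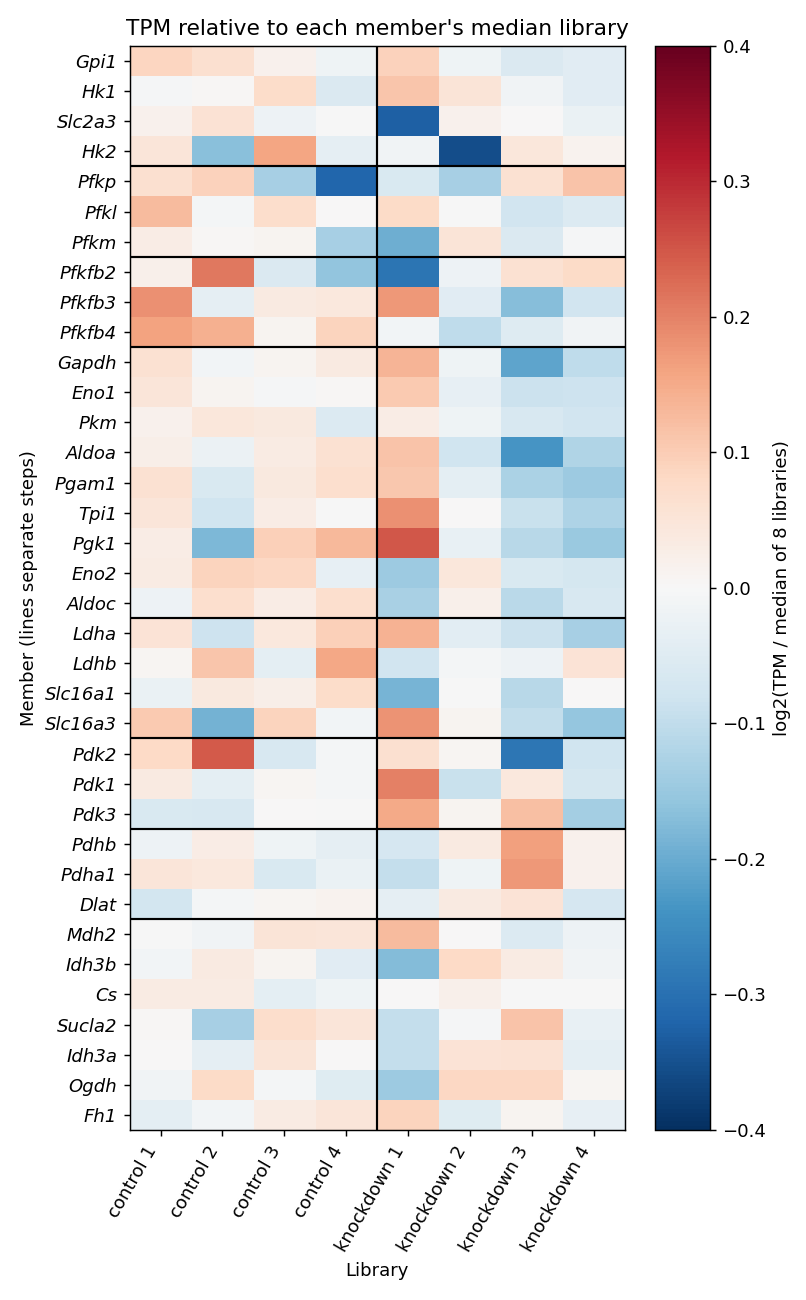
Each tested member's TPM in each library relative to the median of the 8 libraries, on a log2 scale, red above and blue below; horizontal lines separate the steps and the vertical line the groups. Knockdown 1 is red and knockdown 3 and 4 are blue over most of the aldolase to pyruvate kinase block, while Slc2a3, Pfkfb2, Idh3b and Ogdh are blue in knockdown 1.

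Leaving out knockdown 1 moved the members' values. Those with an unadjusted p under 0.05 then numbered 9, all lower in the knockdown (Gpi1, Pfkl, Pfkfb3, Aldoa, Gapdh, Pgam1, Eno1, Ldha and Pdk2). That is 25.0% of the members, against 3.88% of all genes that were lower at this threshold. Because members of one pathway vary together between libraries, this count is a description with no test. The same count was 0 to 2 when any other single library was left out. The smallest p-value among them was that of Aldoa, with a log2 fold change of -0.19 (SE 0.059, adjusted p = 0.374 by edgeR). None of the 36 was called, and the median log2 fold change was -0.08, against -0.001 over all genes. Nothing in the labels sets knockdown 1 apart, so the comparison with all 8 libraries stands as the main one.

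Gene length moved with the library differences. In knockdown 1, the median log2 deviation of CPM (with 0.1 added) from the median of the other 7 libraries was 0.12 for the shortest of 4 equal length classes of tested genes and -0.08 for the longest. The same medians were 0.09 and -0.05 in control 4, -0.03 and 0.03 in knockdown 3, and -0.05 and 0.04 in knockdown 4. In controls 1 to 3 and knockdown 2 they ranged from -0.04 to 0.02. The members highest in knockdown 1 by CPM numbered 4 of 8, 9 of 13, 4 of 12 and 1 of 3 from the shortest to the longest class, against 30.2%, 22.5%, 17.3% and 8.81% of all genes in those classes. For the aldolase to pyruvate kinase genes the median deviation was 0.21 in knockdown 1 and -0.16 in knockdown 3, and for the TCA cycle genes -0.03 and 0.03. The table gives Aldoa 1549 bases and Aldoc 2786, Eno1 2027 and Eno2 2795, and Ldha 1815 and Ldhb 1304. The part of gene length in the member values was not tested.

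**Figure D5:**
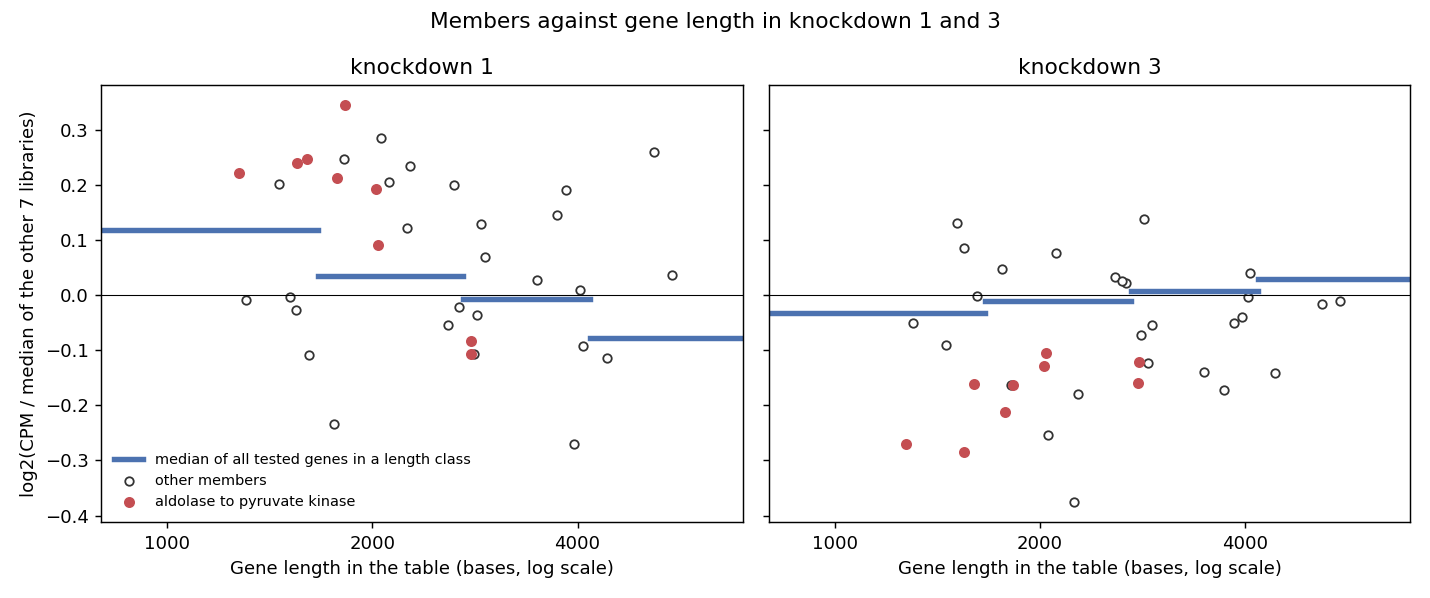
Log2 ratio of each member's CPM in knockdown 1 (left) and knockdown 3 (right) to the median of the other 7 libraries, against gene length in bases on a log scale. Blue bars are the medians of all tested genes in each length class (0.12 to -0.08 in knockdown 1), red points are the aldolase to pyruvate kinase genes and open points the other members.

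The rest of the pathway gave no called gene. Among 24 other glycolysis genes, 15 were tested and 0 were called. Unlike the members, more of these had a positive log2 fold change (9) than a negative one (6), with a median of 0.05. Of all tested genes, 51.8% were positive. In edgeR 2 of the 15 had an unadjusted p under 0.05, against 5.27% of all tested genes. These were Hkdc1, a hexokinase relative, with 12.8 ± 1.46 and 16.5 ± 4.32 TPM (SD, n = 4 each; log2 fold change 0.36, SE 0.161, edgeR adjusted p = 0.919), and Glo1, which clears methylglyoxal, with 1085 ± 45.1 and 1236 ± 131 TPM (SD, n = 4 each; log2 fold change 0.18, SE 0.081, edgeR adjusted p = 0.918). Slc2a1, the glucose transporter GLUT1, was at 203 to 219 TPM in all libraries, and Bsg, the chaperone of the lactate transporters, was highest in knockdown 1 at 1071 TPM against 844 to 945 elsewhere.

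Of 9 other pyruvate entry genes, 8 were tested and 0 called. The smallest unadjusted p-values belonged to Pcx, the pyruvate carboxylase (log2 fold change -0.16, edgeR adjusted p = 0.940), and Pdp2, a phosphatase that reactivates pyruvate dehydrogenase (log2 fold change -0.14). All 13 other TCA cycle genes were tested and 0 were called, with log2 fold changes from -0.05 (Sdhc) to 0.09. Dlst, of the oxoglutarate dehydrogenase, had a log2 fold change of -0.04. Sdha, of succinate dehydrogenase, was at 232 to 249 TPM in all libraries.

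Hypoxia-responsive genes outside the pathway were read beside the members. Of 15 such targets, 14 were tested and 0 were called. By TPM knockdown 1 was the highest library for 7 of the 14, against 12.1% of all tested genes, and the lowest for 1, against 27.0%. The untested Car9, singled out after its values were seen, was also highest there. It had 1.64 TPM in knockdown 1 and 0.064 to 0.66 TPM elsewhere, with 1 to 26 counts in a library. Vegfa, the vascular growth factor, had 366 ± 26.1 TPM in the controls and 384 ± 26.5 TPM in the knockdown (SD, n = 4 each), with 416 TPM in knockdown 1. Egln3, an oxygen-sensing hydroxylase that was singled out after its values were seen, had 24.5 TPM in knockdown 1 and 7.71 to 11.2 TPM elsewhere. Hif1a, the oxygen-regulated transcription factor itself, was at 489 to 537 TPM with no called difference (log2 fold change 0.01, SE 0.049, edgeR adjusted p = 0.998).

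Reads that genes share limit a few values. Of the members' exonic bases in GENCODE M21, 11.5% in Gpi1, 10.7% in Pfkm, 19.5% in Pfkfb2, 15.3% in Pkm and 16.1% in Pdha1 are shared with another gene, and whether the counting used strand is not given in the sources used here. Named pseudogene rows of Gapdh and Ldha held at most 0.0575% and 0.0261% of the counts of the gene and its pseudogenes, while reads that matched unlisted copies cannot be seen in the table.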

How the data were processed

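The labels' protocols describe TRIzol extraction of total RNA and 150-base paired reads (NovaSeq X Plus) for the 8 retinal samples. Bowtie 0.12.2 and mm9 stand, without a stated role, in the submitters' processing notes. Although its name says TPM, the table deposited by the authors holds estimated counts: library totals reach 16.03 to 21.4 M (M, 1000000), where TPM would sum to 1 M. Its counting tool and annotation are not given. The 2 columns of group means were left out. Estimates were rounded for the tests, and TPM values come from the counts and lengths deposited by the authors.

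Genes that reached 1 TPM in 4 or more of the 8 libraries were tested with edgeR 4.0.16 in R 4.3.3 (quasi-likelihood test, TMM scaling, group as the only term), with calls at p under 0.05 after Benjamini-Hochberg adjustment over all tested genes. SE values are each fold change's size (log2) divided by the root of its F statistic, and 95% intervals use the t distribution with the fit's degrees of freedom. The common biological coefficient of variation was 0.0959. CPM were scaled by TMM. DESeq2 1.42.0 and limma 3.58.1 on log2(TPM + 1) were alternatives, with other scalings, filters, a replicate block, Y-linked expression as a term, and each library left out. The fit was checked on simulated counts.

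Members and other lists were chosen with earlier results of these data known. All members are named; of the other lists, called genes or the 2 with the smallest p per pathway list, with a fixed panel, of which 1 gene is not reported here. Gene positions are those of GENCODE M21 on GRCm38 and start regions those of RefSeq on GRCm38.p6; the authors' build was not matched to them.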

Additional observations from a re-analysis of the deposited data

Results flagged for a closer look

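In 3 of 72 groups of 4 libraries 1 library stood far from the rest, where chance flags about 1 in 20 groups. The gap to the nearest library was 0.859 of the whole range for Slc2a3 in the knockdown group, with knockdown 1 the lowest. It was 0.836 of the range for Pfkm in the control group, with control 4 the lowest at 105 TPM against 116 to 118 TPM. It was 0.881 of the range for Cs in the knockdown group, with knockdown 2 the highest, although that range spans only 152 to 155 TPM. By CPM, knockdown 1 was the highest for Cs.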

How the results depend on the processing

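Calls among the members numbered 0 in either direction in the main fit, under all 11 alternatives and with each of the 8 libraries left out, and so did calls among the other pathway genes. All 684 log2 fold changes of single members under these settings moved by less than the spread between replicates, a limit that leaves room for a change of direction. The sign changed for 8 of 36 members without control 3, and likewise for 8 without knockdown 3 and 8 without knockdown 4. The number of genes called over the whole table was less steady. It was 10 in the main fit, 45 with DESeq2, 0 with limma on log2(TPM + 1), 157 with no expression filter, 1 at a mean TPM of at least 5 and 0 with robust dispersion, and leaving out a library gave 0 to 58; the cause was not tested. Members with a positive log2 fold change numbered 8, and 7 to 16 without one library. A replicate block gave 11 called genes, 0 of them members, and 8 positive members. Correlations of deviations between control and knockdown libraries of the same number were 0.0091, -0.0026, -0.0384 and -0.1117. These values gave no sign of an effect shared by libraries of the same number, but they cannot show that the samples were not paired. With CPM in place of TPM, an alternative chosen after seeing the data, knockdown 1 was highest for 18 members instead of 14 and lowest for 5 instead of 12, and knockdown 3 was lowest for 14 instead of 8. Depth did not limit the tested members, while Pdk4 and the second Aldoa row were too low to test.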
